A study of Caenorhabditis elegans with 2 samples.

Results

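The genes described here encode the translation factors and aminoacyl-tRNA synthetases of *Caenorhabditis elegans*, read for binding of SNPC-4. The members were the protein-coding genes of the Ensembl WBcel235 annotation whose names start with eif-, eef- or ife-, or consist of 1 lower-case letter followed by ars- and a number. There were 68 of them among 19985 protein-coding genes: 6 elongation factor genes, 30 initiation factor genes and 32 tRNA synthetase genes. The measurement was ChIP-seq, in which DNA bound by a protein is recovered with an antibody and sequenced. Whole L2 larvae of mixed sex from strain OP179 were used, with 2 biological replicates in 1 group, and the antibody label read snpc-4. The strain carried unc-119(ed3) on chromosome III together with wgIs179, an inserted eGFP-tagged snpc-4 transgene. The sample descriptions name eGFP-snpc-4 as the target. Whether untagged SNPC-4 was also recovered cannot be told from the labels. Library fragments were 150 to 350 bp long. No other condition was labelled, so the members were compared with all other coding genes and with each other. In whole animals, strong binding in a few cells and weak binding in many cells cannot be told apart.

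SNPC-4 belongs to SNAPc, a complex that recognises a promoter element ahead of genes for small nuclear RNAs. In *C. elegans* it is also known from the promoters of spliced leader RNA genes and from piRNA loci. Translation begins when initiation factors bring the small ribosomal subunit, the initiator tRNA and the capped messenger RNA together. Elongation factors then deliver aminoacyl-tRNAs to the ribosome and move it along the message, and the aminoacyl-tRNA synthetases load each amino acid onto its tRNA. All of these are proteins encoded by genes that RNA polymerase II transcribes, and the synthetase genes are distinct from the tRNA genes.

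Peaks were read from 4 lists on the ce11 build: 30000 candidate peaks called on both replicates pooled, 21391 candidates of replicate 1, 30000 candidates of replicate 2, and the 1864 peaks that passed the authors' reproducibility threshold, called the irreproducible discovery rate (IDR) list. The authors label this list the optimal set, and a peak in it was not always listed in both replicates. All 1864 IDR peaks were the strongest 1864 of the pooled list and carried the same signal there, the lowest being 28.0. The signal is the authors' enrichment value for a peak. Its scaling to sequencing depth was not given in the sources used here, so signals were compared only within a list. Median signals were 43.7 in the IDR list, 8.10 in the pooled list, 3.09 in replicate 1 and 6.84 in replicate 2. A gene was called bound when an IDR summit, the point of highest signal in a peak, lay within 500 bp of any of its annotated 5′ ends. A candidate is a summit in one of the other 3 lists by the same distance. The number of reads behind a peak is unknown, and intervals below are exact Clopper-Pearson 95% intervals that cover the counting of genes only.

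The sequences around 8 of the bound summits are shown because they carry the short element that most bound members shared, and because *eef-1G* and *eef-1A.2* show strong summits without it. Capitals mark each GCGC. Each runs 5′ to 3′ on the strand of the member, from the RefSeq genome of assembly WBcel235, and covers 50 bp to each side of the summit unless an annotated exon lies closer. The windows lie at chrII:14795117-14795217 (plus strand, *eif-3.B*), chrII:6967731-6967831 (minus strand, *eif-2Bgamma*), chrV:10965648-10965718 (plus strand, *eef-1G*), chrX:7823245-7823345 (plus strand, *eef-1A.2*), chrIV:390469-390523 (minus strand, *ears-2*), chrIV:4810526-4810626 (plus strand, *eif-1.A*), chrX:382871-382971 (minus strand, *ife-2*) and chrIV:15037133-15037233 (plus strand, *eef-1B.2*). None of the 8 stretches holds an annotated exon.
eif-3.B: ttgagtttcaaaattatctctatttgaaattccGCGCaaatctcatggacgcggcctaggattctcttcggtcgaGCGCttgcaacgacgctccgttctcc
eif-2Bgamma: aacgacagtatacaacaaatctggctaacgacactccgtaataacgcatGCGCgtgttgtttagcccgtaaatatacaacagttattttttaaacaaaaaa
eef-1G: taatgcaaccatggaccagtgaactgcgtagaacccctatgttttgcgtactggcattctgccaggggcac
eef-1A.2: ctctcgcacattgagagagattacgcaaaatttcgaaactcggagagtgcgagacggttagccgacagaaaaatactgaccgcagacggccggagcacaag
ears-2: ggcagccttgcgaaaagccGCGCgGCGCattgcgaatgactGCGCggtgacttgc
eif-1.A: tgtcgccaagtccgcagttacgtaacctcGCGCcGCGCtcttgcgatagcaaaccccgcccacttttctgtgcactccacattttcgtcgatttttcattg
ife-2: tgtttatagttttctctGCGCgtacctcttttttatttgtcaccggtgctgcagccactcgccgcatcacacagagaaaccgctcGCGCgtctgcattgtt
eef-1B.2: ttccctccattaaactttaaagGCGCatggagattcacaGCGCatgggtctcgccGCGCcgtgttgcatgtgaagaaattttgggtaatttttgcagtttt

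SNPC-4 summits lay at all of the elongation factor genes, at some of the initiation factor genes and at a single tRNA synthetase gene. An IDR summit lay at 18 of the 68 members, or 26.5% (16.5 to 38.6%), against 1249 of 19917 other coding genes, or 6.27% (5.94 to 6.62%). All 6 elongation factor genes were bound (100%, interval 54.1 to 100%), as were 11 of 30 initiation factor genes (36.7%, 19.9 to 56.1%). Of the 32 tRNA synthetase genes 1 was bound, *ears-2* (3.13%, 0.0791 to 16.2%). The interval of the translation factor genes, 17 of 36 or 47.2% (30.4 to 64.5%), and that of the synthetase genes did not overlap, and the synthetase interval took in the share of the other coding genes. The members were named with earlier results of these data known, so no test of these shares was made.

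**Figure D1:**
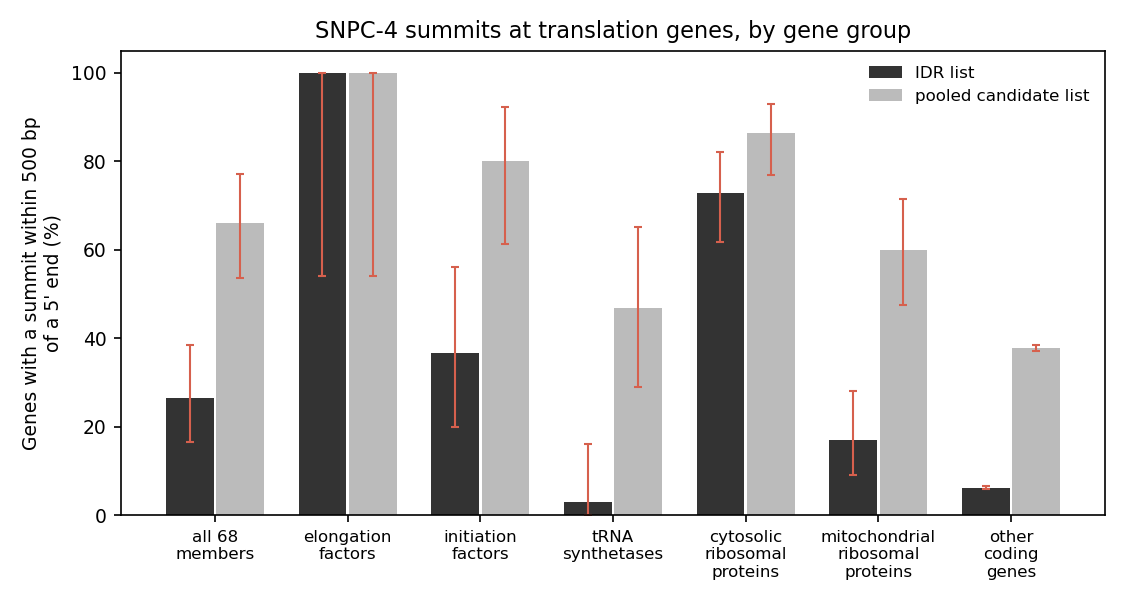
Share of genes (%) with a summit within 500 bp of a 5′ end in the IDR list (dark bars) and in the pooled candidate list (light bars), with exact 95% intervals, for all 68 members, their 3 roles, 2 classes of ribosomal protein genes and other coding genes. The IDR share is 100% for elongation factors, 36.7% for initiation factors and 3.13% for tRNA synthetases, against 6.27% for other coding genes.

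Among the elongation factors, the strongest summit lay at *eef-1G*, the gamma subunit of the exchange factor that recharges eEF1A, with an IDR signal of 97.7 and signals of 18.1 in replicate 1 and 87.3 in replicate 2. *eef-1A.1*, one of the paired genes for eEF1A, which carries aminoacyl-tRNAs to the ribosome, had 93.8 in the IDR list, 19.5 in replicate 1 and 74.5 in replicate 2. The other eEF1A gene, *eef-1A.2*, had 54.7 in the IDR list, 13.0 in replicate 1 and 44.4 in replicate 2. The summits of the 2 eEF1A genes were separate peaks on different chromosomes, III and X, and ranked 243 and 613 in the IDR list. *eef-2*, which encodes the translocation factor eEF2, had 74.1 in the IDR list, 25.3 in replicate 1 and 50.4 in replicate 2. *eef-1B.1*, another exchange factor subunit, had 61.5 in the IDR list, 17.7 in replicate 1 and 43.4 in replicate 2. These 5 genes ranked among the strongest 932 of the 1864 IDR peaks. *eef-1B.2*, also an exchange factor subunit, was the weakest elongation factor gene, with 29.2 in the IDR list and 23.7 in replicate 2, and no replicate 1 peak overlapped its IDR peak. A replicate 1 candidate with a signal of 4.23 lay elsewhere within its 500 bp. The median signal of the 6 genes was 67.8.

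Initiation factor genes spanned the whole range of the bound members. The 3 strongest encode subunits of eIF3, the complex that scaffolds the small ribosomal subunit. *eif-3.B* had the highest signal of any member, 182 in the IDR list, with 48.9 in replicate 1 and 133 in replicate 2, and ranked 117 of 1864. *eif-3.C* had 118 in the IDR list, 19.3 in replicate 1 and 98.2 in replicate 2. *eif-3.E* had 88.1 in the IDR list, 17.8 in replicate 1 and 68.0 in replicate 2. *eif-3.H*, the only other bound eIF3 gene under the name rule, was weaker, at 36.7 in the IDR list, 11.2 in replicate 1 and 26.3 in replicate 2. In all, 4 of 11 eIF3 genes were bound and 8 had a pooled candidate, while *eif-3.J*, *eif-3.K* and *eif-3.L* had no candidate in any list. *egl-45*, the eIF3A gene, lies outside the name rule and was looked up after the other values were seen. It had a pooled signal of 17.2 and no IDR summit.

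The factor eIF2 brings the initiator tRNA, and eIF2B is its exchange factor. Of 5 eIF2B genes, 3 were bound and 4 had a pooled candidate. *eif-2Bgamma* had 74.9 in the IDR list, 24.0 in replicate 1 and 57.0 in replicate 2. *eif-2Bdelta* had 44.4 in the IDR list, 2.71 in replicate 1 and 35.7 in replicate 2. *eif-2Bbeta* had 36.8 in the IDR list, 3.56 in replicate 1 and 33.7 in replicate 2. Replicate 1 thus gave *eif-2Bgamma* several times the signal of the other two, while in replicate 2 the 3 genes lay closer together. None of the 3 eIF2 genes was bound, although each had a candidate in the pooled list and in both replicate lists. Pooled signals were 11.2 for *eif-2alpha*, 17.9 for *eif-2beta* and 18.6 for *eif-2gamma*. The candidates of replicates 1 and 2 lay at different sites for *eif-2gamma* (-484 and -13 bp, upstream negative) and *eif-2beta* (-444 and -184 bp). At *eif-2alpha* they lay at 10 and -30 bp. Thus eIF2B had the more IDR summits, at 3 of 5 genes against 0 of 3 for eIF2, while pooled candidates lay at 4 of 5 and 3 of 3 genes, and the difference between the complexes was not tested.

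The genes for the start codon selection factors eIF1 and eIF1A each had an IDR summit within 500 bp. *eif-1.A* had 37.2 in the IDR list, 6.81 in replicate 1 and 28.8 in replicate 2. *eif-1* was the weakest bound member, at 28.1 in the IDR list and 26.9 in replicate 2, with no candidate in replicate 1. Its summit lay 410 bp upstream of the *eif-1* 5′ end and 8 bp upstream of that of *vps-24*, on the opposite strand. The peak therefore cannot be assigned to *eif-1* alone. Of the 5 ife genes, which encode forms of the cap-binding protein eIF4E, 2 were bound. *ife-2* had 32.4 in the IDR list, 2.54 in replicate 1 and 32.3 in replicate 2. *ife-3* had 29.2 in the IDR list and 27.7 in replicate 2, with no candidate in replicate 1. The remaining 4 initiation factor names, *eif-2A*, *eif-2D*, *eif-4A3* and *eif-6*, had no IDR summit, and 3 of them had a pooled candidate.

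The single bound synthetase gene was *ears-2*, annotated in RefSeq as the mitochondrial glutamyl-tRNA synthetase. Its signal was 51.2 in the IDR list, 2.93 in replicate 1 and 42.2 in replicate 2. Its rank was 701 in the IDR list, 650 in replicate 2 and 11793 of 21391 in replicate 1, where the signal lay below that list's median. The summit was 5 bp upstream of the *ears-2* 5′ end and 87 bp upstream of that of *uncp-18*, which points the other way, so the peak cannot be assigned to either gene alone. *ears-1*, which by its name encodes the other glutamyl-tRNA synthetase, had no candidate in any list.

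**Figure D2:**
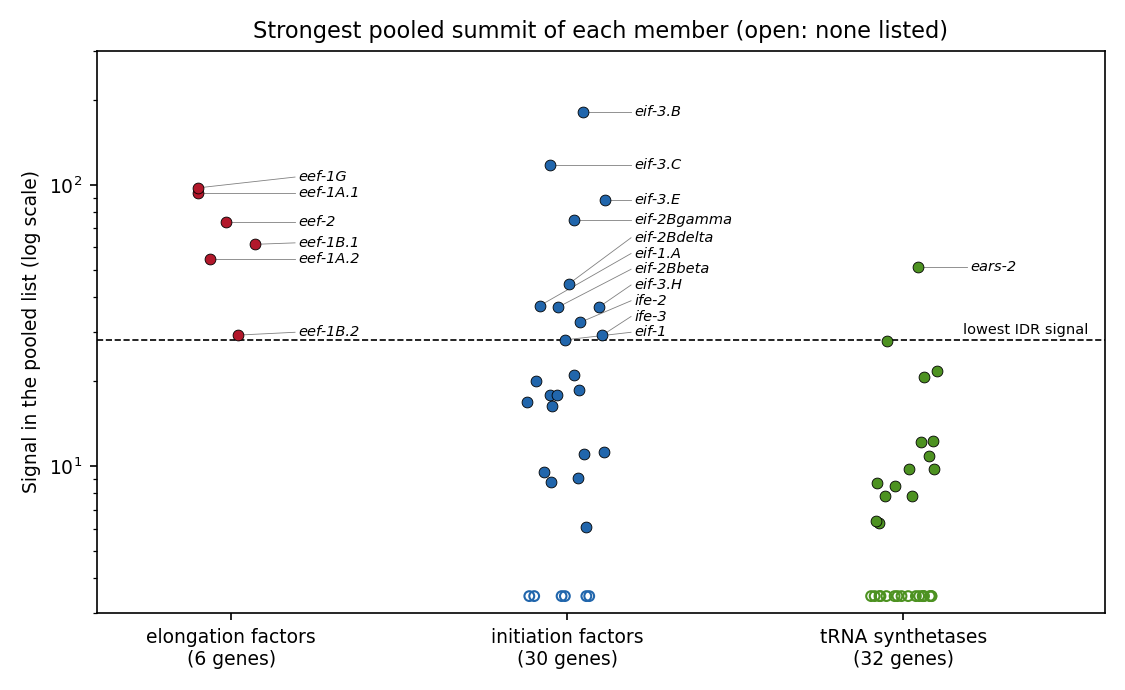
Signal of the strongest summit within 500 bp of each member in the pooled list (log scale), by role, with 1 point per gene and open circles along the bottom for genes with none listed. The dashed line is the lowest IDR signal, 28.0: all 6 elongation factors, 11 initiation factors and *ears-2* lie above it.

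Just below that line, 5 members had the strongest pooled summits among those without an IDR summit. *aars-1*, an alanyl-tRNA synthetase gene, had a pooled signal of 27.8, with 2.92 in replicate 1 and 26.0 in replicate 2, next to 28.1 for *eif-1* just inside. The valyl-tRNA synthetase gene *vars-1* had 21.8, *eif-3.I* had 21.1, the seryl-tRNA synthetase gene *sars-2* had 20.7, and *eif-2Balpha* had 20.01. Across the pooled list 45 members had a candidate, or 66.2% (53.7 to 77.2%), against 37.9% of other coding genes. The candidates were at 6 of 6 elongation factor genes, 24 of 30 initiation factor genes (80.0%, 61.4 to 92.3%) and 15 of 32 synthetase genes (46.9%, 29.1 to 65.3%). For the synthetases this share was above that of the other coding genes, which lay within its interval.

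The 27 members with a pooled candidate but no IDR summit had a median pooled signal of 11.1 and a range of 6.08 to 27.8, against a median of 9.04 for other coding genes in the same position. The 13 initiation factor genes among them had a median of 16.4, and the 14 synthetase genes a median of 9.75. The remaining 23 members had no pooled candidate, as did 12373 of the 19917 other coding genes. Of the 23 members, 11 had a candidate in 1 replicate list, 8 in replicate 1 and 3 in replicate 2, and 9 of the 11 were synthetase genes. The other 12 had none in any list. They were 8 synthetase genes, *dars-1*, *ears-1*, *iars-1*, *iars-2*, *lars-1*, *lars-2*, *pars-1* and *wars-1*, and 4 initiation factor genes, *eif-3.J*, *eif-3.K*, *eif-3.L* and *ife-1*, named after their values were seen. For the counts of 11 and 12 no share of other coding genes was computed, so they are not read as a result. A gene with no listed candidate is one with no summit in the authors' lists, not one shown to be free of the protein. The pooled and replicate 2 lists each hold exactly 30000 peaks, so weaker summits may have been cut by a limit on number. Whether they were is not stated.

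The replicates differed in what they listed at the members. Replicate 1 had a candidate at 40 members, or 58.8% (46.2 to 70.6%), against 30.3% of other coding genes. Replicate 2 had one at 45 members, or 66.2% (53.7 to 77.2%), against 38.2% of other coding genes. The synthetase genes alone had a candidate at 14 of 32 in replicate 1 (43.8%, 26.4 to 62.3%) and at 17 of 32 in replicate 2 (53.1%, 34.7 to 70.9%), and both intervals took in the share of other coding genes in that list. A candidate was present in both replicate lists for 29 of 68 members, against 3703 of 19917 other coding genes (18.6%). By role these were 6 of 6 elongation factor, 16 of 30 initiation factor and 7 of 32 synthetase genes. The synthetase share was close to that of other coding genes. Exactly 1 list held a candidate for 27 members and neither list for 12. For these 2 counts no share of other coding genes was computed, so they are not read as a result. Every one of the 18 bound members had a replicate 2 peak overlapping its IDR peak, with signals of 23.7 to 133, all above that list's median. An overlapping replicate 1 peak was present at 15 of the 18, with signals of 2.54 to 48.9, and at 12 of these it exceeded the median of the replicate 1 list. Among the 29 members in both lists the order was similar: Spearman's rho was 0.71, a description over genes that share the same 2 libraries. This value compares the strongest summit of each list within 500 bp. These need not be the same site, as at *eif-2gamma* (-484 bp in replicate 1, -13 bp in replicate 2, upstream negative). Members listed in 1 replicate only, among them the bound *eif-1* and *ife-3*, are left out of it. *eif-3.B*, the member with the strongest IDR signal, had rank 95 in replicate 1 and rank 125 in replicate 2. The IDR signal comes from these same replicates, so such ranks are a description and not independent support. *ife-2*, *eif-2Bdelta* and *ears-2* ranked between 650 and 1031 in replicate 2 and between 11793 and 15222 in replicate 1. When the 1864 strongest peaks of replicate 1 alone were used, 11 members were bound, and *ears-2*, *eif-2Bbeta*, *eif-2Bdelta*, *eif-1*, *eif-1.A*, *ife-2*, *ife-3* and *eef-1B.2* were not among them, while *eif-4A3*, which encodes an RNA helicase of the exon junction complex, was gained. The 1864 strongest peaks of replicate 2 alone gave 19, all 18 bound members and *aars-1*.

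**Figure D3:**
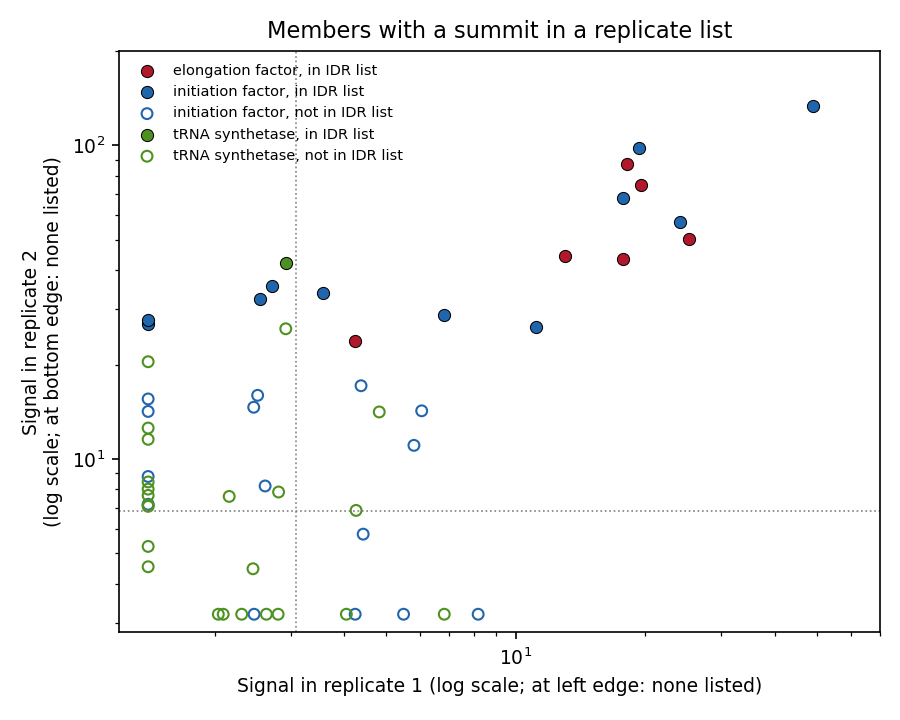
Signal of the strongest summit within 500 bp of each member in replicate 1 (x axis) and replicate 2 (y axis), both log scales, coloured by role, with filled points for bound members and points at the edges for members listed in 1 replicate only. Dotted lines are the list medians, 3.09 in replicate 1 and 6.84 in replicate 2: all 18 bound members lie above the replicate 2 line, while some lie to the left of the replicate 1 line.

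The pooled list was also followed from its strongest peaks downward. None of the 68 members lay at the strongest 100 peaks, and the first reached were the initiation factor genes *eif-3.B* at rank 117 and *eif-3.C* at rank 185, ahead of the elongation factor gene *eef-1G* at rank 220. By the strongest 500, 4 of 6 elongation factor genes, 4 of 30 initiation factor genes and 0 of 32 synthetase genes had a summit, against 1.77% of other coding genes. By the strongest 5000, 18 of 30 initiation factor genes (60.0%) and 4 of 32 synthetase genes (12.5%) had one, against 13.1% of other coding genes. The synthetase shares were 0% at the strongest 500 peaks and 21.9% at the strongest 10000, against 1.77% and 19.8% of other coding genes. The shares of both factor groups were above that of other coding genes from the strongest 250 peaks on.

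**Figure D4:**
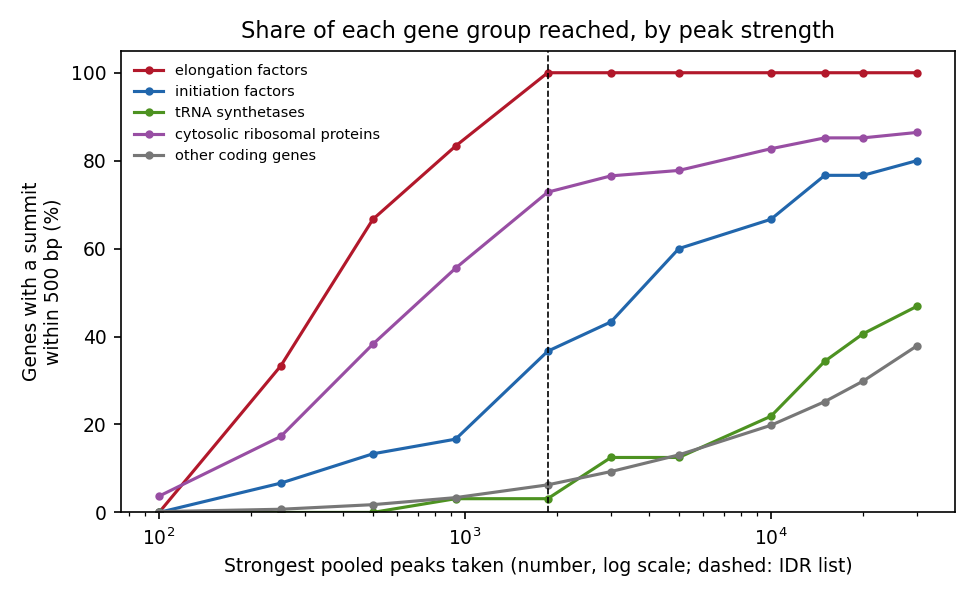
Share of genes (%) with a summit within 500 bp of a 5′ end among the strongest pooled peaks, by the number of peaks taken (log scale), for the 3 roles, cytosolic ribosomal protein genes and other coding genes. The dashed line is the IDR list of 1864 peaks, where the initiation factor share is 36.7%, the synthetase share 3.13% and that of other coding genes 6.27%.

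Bound members did not stand far apart in strength from other bound genes. Their median IDR signal was 52.9 (exact interval of the median 36.7 to 88.1, n = 18), against 45.2 (44.0 to 46.1, n = 1249) at other bound coding genes. The 11 initiation factor genes had a median of 37.2. By comparison, 59 of 81 cytosolic ribosomal protein genes were bound (72.8%, 61.8 to 82.1%), with a median signal of 61.7. Of the mitochondrial ribosomal protein genes 12 of 70 were bound (17.1%, 9.18 to 28.0%). The factor genes, at 47.2%, thus lay between these classes, and the synthetase genes, at 3.13%, lay below both. The factor interval (30.4 to 64.5%) overlapped that of the cytosolic class. The synthetase interval (0.0791 to 16.2%) overlapped that of the mitochondrial class, and this order was not tested. Of 24 translation genes under other names, from a list drawn up with earlier results known, 5 were bound. They were *iff-2*, a homolog of eIF5A, with an IDR signal of 169.5, *gfm-1*, a mitochondrial elongation factor G gene, with 61.3, the poly(A)-binding protein genes *pab-2*, with 50.3, and *pab-1*, with 30.2, and *gcn-1*, whose yeast counterpart acts with the eIF2 kinase GCN2, with 36.5. Of the 24 genes 16 had a pooled candidate. The names iftb-1 and etf-1 on the list matched no gene name in the annotation and were not used.

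All 18 summits lay upstream of the member's nearest 5′ end and between coding genes, and none lay in an intron or exon of a coding gene. The median signed distance was -202 bp, where negative is upstream, with *ears-2* the closest at -5 and *ife-3* the farthest at -422. The median was -177 at other bound coding genes, of which 92.3% had the summit upstream, and -293 at bound cytosolic ribosomal protein genes. Elongation factor genes fell at both ends of the range. The summits of *eef-2* at -11, *eef-1G* at -21 and *eef-1B.1* at -38 were close to the start, *eef-1B.2* lay at -148, and *eef-1A.2* at -359 and *eef-1A.1* at -397 were far from it. A summit far upstream can lie nearer to another gene, and in 9 of the 18 cases the 5′ end of another coding gene lay within 500 bp of the summit. That gene was on the opposite strand in 8 cases, as for *eef-1G* and *ctf-4*, *eef-2* and *clsp-1*, and *eef-1B.1* and *aco-2*, and on the same strand in the case of *ife-3* and B0348.10. It was nearer to the summit than the member in 4 cases: *rfc-4* at *eef-1A.1*, Y47H9C.8 at *eif-2Bbeta*, C41D11.3 at *eif-3.H* and *vps-24* at *eif-1*. A noncoding gene lay within 250 bp at *eef-1A.1* (cel-mir-5549), *eef-1A.2* (R03G5.8) and *eef-1B.1* (F54H12.9, which spans the summit). At 8 bound members neither was present: *eif-3.B*, *eif-3.C*, *eif-3.E*, *eif-2Bgamma*, *eif-2Bdelta*, *eif-1.A*, *ife-2* and *eef-1B.2*. Counting only summits shared with no other coding gene, a rule added after the data were seen, left 9 members bound, or 13.2%. The share of other coding genes was then 3.35%. The rule kept 9 of the 18 bound members and 667 of the 1249 other bound coding genes, so shared summits were not particular to the members. The 9 members kept held 2 of the 6 elongation factor genes, *eef-1A.2* and *eef-1B.2*, and 7 initiation factor genes, and *ears-2* was not among them. Leaving out summits with a noncoding gene within 250 bp kept 15 of the 18 bound members and 1041 of the 1249 other bound coding genes. It kept 3 of the 6 elongation factor genes, so their count depended on how shared summits were assigned.

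**Figure D5:**
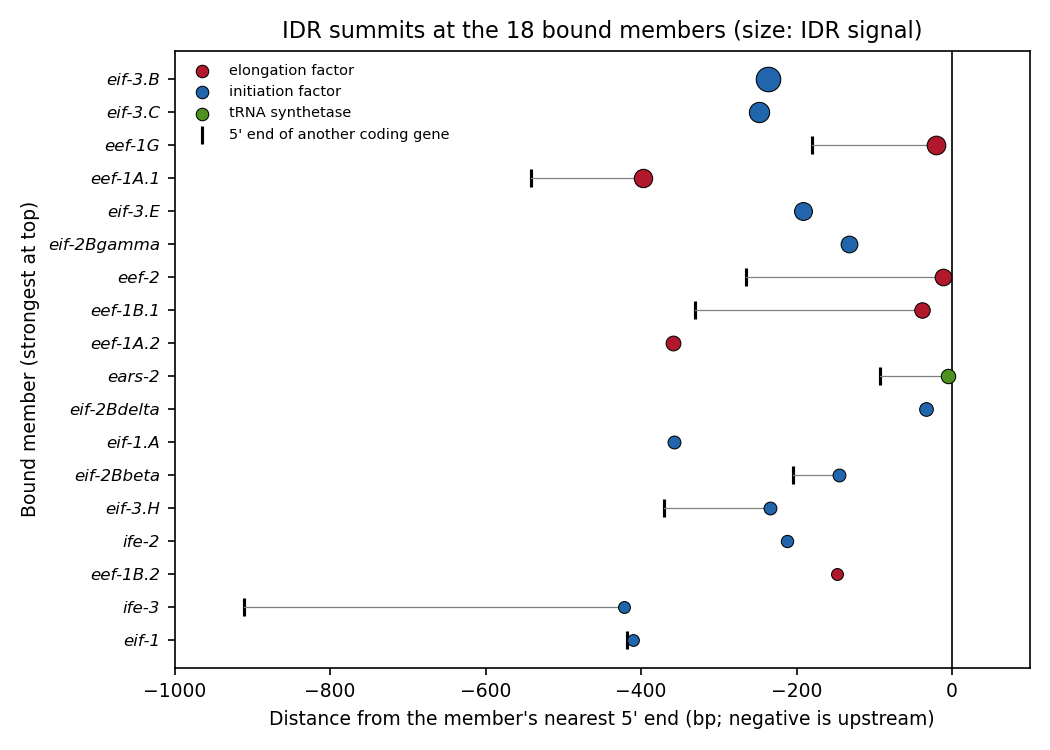
Position of the IDR summit (points, area growing with IDR signal) relative to the nearest 5′ end of each bound member (vertical line at 0), in bp with upstream negative, for the 18 bound members from strongest to weakest. Vertical ticks mark the 5′ end of another coding gene within 500 bp of the summit, present for 9 of 18, and all 18 points lie to the left of the line, between -422 and -5.

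Bound members were also counted by the arrangement of neighbouring genes. The nearest upstream coding gene pointed the other way within 1000 bp, a head-to-head arrangement, at 29 of 68 members (42.6%), against 21.2% of other coding genes. Of these 29 members 10 were bound (34.5%, 17.9 to 54.3%), against 15.3% of head-to-head genes among the other coding genes. A gene on the same strand within 500 bp upstream, as is common inside *C. elegans* operons, preceded 19 members. They made up 27.9% of members, against 20.6% of other coding genes. Of these 19 members 3 were bound (15.8%, 3.38 to 39.6%), against 4.13% of other coding genes in that arrangement. Of the remaining 20 members 5 were bound (interval 8.66 to 49.1%), against 3.75% of the other coding genes. In each arrangement the members' share was the higher of the pair, although the interval for same-strand members reached down to 3.38% and so took in the share of the other coding genes. Within the roles the shares differed little by arrangement. Elongation factor genes were bound at 4 of 4 head-to-head positions, 1 of 1 same-strand position and 1 of 1 other. Initiation factor genes were bound at 5 of 13 head-to-head positions, 2 of 7 same-strand positions and 4 of 10 others. Synthetase genes were bound at 1 of 12 head-to-head positions, 0 of 11 same-strand positions and 0 of 9 others. The part of gene arrangement in the overall share was not tested beyond these counts.

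Longer motifs found at some SNPC-4 summits were looked for at the bound members. Within 50 bp of the summit, on either strand, AGACGCAG, CGGAACCC, GCCGACAC and CTGTTTCA occurred at 0 of 18 members each, which allows a share of up to 18.5%. Among all IDR summits the shares were 10.4% for AGACGCAG, 6.38% for CGGAACCC, 6.22% for GCCGACAC and 0.107% for CTGTTTCA, all below that limit, so with 18 summits a difference was not detectable. These 4 motifs came from earlier results of the same data. The 4-letter element GCGC, which reads the same on both strands, was picked by eye from the members' windows and is capitalised in the sequences above. It occurred within 50 bp of the summit at 14 of the 18 bound members (77.8%, 52.4 to 93.6%), and more than 1 copy was present at 12 of them. The share was 59.0% (55.8 to 62.2%) at IDR summits of other coding genes, 58.9% at those of cytosolic ribosomal protein genes, and 11.7% at the 28136 pooled candidates outside the IDR list. The 4 bound members without it were *eef-1G*, *eef-1A.1*, *eef-1A.2* and *eif-1*. Since the element was chosen on these windows, the members' share is a description, and its interval took in that of the other coding genes.

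Base composition was also compared between sets of summits. The median GC content of the 101 bp around the summit was 49.0% at bound members and 47.5% at bound other coding genes. It was 32.7% at pooled candidates outside the IDR list. Within the bound members the element did not follow GC content: *eif-2Bgamma*, at 35.6%, held it, and *eef-1A.2*, at 51.5%, did not. The part of base composition in the GCGC shares was not tested. In the 500 bp upstream of the outermost 5′ end, GCGC was present at 39 of 68 members (57.4%), against 41.7% of other coding genes. By role it was present at 5 of 6 elongation factor genes, 21 of 30 initiation factor genes and 13 of 32 synthetase genes. Of the 39 members with it 16 were bound (41.0%), and of the 29 without it 2 were (6.90%). By role, elongation factor genes were bound at 5 of 5 with it and 1 of 1 without it. Initiation factor genes were bound at 10 of 21 and 1 of 9, and synthetase genes at 1 of 13 and 0 of 19. Among other coding genes 11.3% with it and 2.65% without it were bound. For cytosolic ribosomal protein genes the shares were 75.9% (44 of 58) with it and 65.2% (15 of 23) without it. Members with the element were bound more often than members without it, as were other coding genes. The element was picked from the windows of the bound members, so the split among members was partly set by that choice. It is a description only, and the difference was not tested. The element was also present at 23 members that were not bound, 12 of them synthetase genes. Mapping ambiguity was checked on the sequence itself: in the 301 bp around each of the 18 summits all 270 stretches of 32 bases occurred at no other place in the genome.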

How the data were processed

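SNPC-4 ChIP-seq of whole L2 larvae was read from peak lists on ce11, the same assembly as WBcel235. The signal values in the deposited lists were made by the authors, who called peaks per replicate and on pooled alignments against a control and passed them to the IDR procedure, per the description files. The aligner, caller and versions are not given in the sources used here, and read depth is unknown. The lists on ce10 were not used. Summits were assigned to Ensembl release 115 coding genes within 500 bp of any annotated 5′ end with Python 3.11.15, pandas 2.3.3, numpy 2.4.6 and scipy 1.17.1, and the strongest was kept; the assignment was tested on simulated data. Sequences came from the RefSeq genome. The members and gene lists were chosen with earlier results of these data known. Every member with an IDR summit was named with its values, as were the 5 strongest members outside the threshold and other-named translation genes with an IDR summit. Ribosomal protein genes were only counted. Shares are set beside those of other coding genes, with no test. The alternatives changed the peak threshold, the window, the assignment, noncoding neighbours and the replicates.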

Additional observations from a re-analysis of the deposited data

How the results depend on the processing

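Only 2 replicates, unknown depth and signals of unstated scaling limit every value, and the small number of members makes the intervals wide. The share of bound members stayed above that of other coding genes under all 10 alternatives, by 2.89 to 5.09 times, against 4.22 times in the reported comparison. No paired analysis was possible because the data hold 1 group and no test between groups.

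With the strongest 932 IDR peaks, 16.2% of members (10 translation factor genes) were bound, against 3.37% of other coding genes. Requiring the peak to cover the 5′ end gave 11.8% of members (7 factor genes), a median distance of -36, and 2.31% of other coding genes. Counting only summits shared with no other coding gene, an alternative added after the data were seen, gave 13.2% of members (9 factor genes and 0 synthetase genes), against 3.35% of other coding genes. A window of 1000 bp added *dars-2*, *fars-1*, *rars-1* and *eif-3.J*, giving 4 synthetase genes and 32.4% of members, against 8.19% of other coding genes. A window of 250 bp gave 19.1% of members, against 4.10% of other coding genes. The nearest coding gene only gave 20.6% of members, against 4.79%, the outermost 5′ end only 26.5%, against 5.93%, and leaving out summits near noncoding genes 22.1%, against 5.23%.

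With 1 replicate left out, the share of members was 16.2 to 27.9%, against 5.60 to 6.43% of other coding genes, with 11 to 17 translation factor genes and 0 to 2 synthetase genes bound. The low values came from replicate 1 alone, that is, with replicate 2 left out. The median signal of bound members was 51.2 to 74.9 on the pooled scale, and the median distance -208 to -192. The count of bound elongation factor genes, 6 of 6 as reported, was 2 where the summit had to be shared with no other coding gene, 3 without summits near noncoding genes, 4 with a window of 250 bp and 4 where the peak had to cover the 5′ end. It was 5 with the strongest 932 IDR peaks, with the nearest coding gene only and with replicate 2 left out, and 6 under the other 3 alternatives. The cause of these shifts was not tested.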
